A study of Mus musculus with 12 samples.

Results

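The Notch pathway was followed through 10 of its genes from a mouse NOTCH1 leukemia through reprogramming colonies to established induced pluripotent stem (iPS) cells. They are 3 receptors (Notch1, Notch2, Notch3), 2 ligands (Dll1, Jag1), the DNA-binding effector Rbpj, and 4 genes known as Notch targets (Dtx1, Nrarp, Hes1, Hey1). They were taken by gene symbol, with the brightest probe set of each gene, and all 10 were found among the 22180 genes measured. The study hybridised 12 Affymetrix microarrays, 3 in each of 4 groups. The groups, in the order of the stages, were leukemia cells from spleen, GFP-positive colonies labelled as partially reprogrammed, GFP-negative colonies labelled as reprogrammed, and established iPS cells. This order follows the labels and is not a measured time course. Both kinds of colony, and the iPS cells, were labelled as colonies from the leukemia cells, and all 4 groups carried the mouse genotype R26rtTA;Col1a12lox-4F2A, known as a doxycycline-inducible cassette that carries Oct4, Sox2, Klf4 and c-Myc in 1 transcript. The labels used here do not say what GFP marks, how NOTCH1 was activated in the model, or whether the cassette was switched on in any group. All 3 leukemia titles bear 1 leukemia number, the sole growth note is that iPS cells were kept in mES medium, and no label says that replicates, though called biological, came from different animals or cultures. P-values therefore cover only the spread of these 12 arrays, which may be technical.

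Notch receptors sit in the cell membrane and are activated by ligands of the Delta and Jagged families on neighbouring cells. Activation leads to cleavage by ADAM proteases and gamma-secretase, and the freed intracellular domain binds RBPJ on DNA, recruits Mastermind-like coactivators and switches on targets such as the transcriptional repressors Hes1 and Hey1. Notch1 directs blood progenitors to the T cell lineage, and its activating mutations are a known driver of T cell acute lymphoblastic leukemia. Dtx1 encodes the ubiquitin ligase Deltex1, and Nrarp encodes an ankyrin repeat protein that limits Notch signalling.

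Values are log2 levels after robust multi-array average (RMA) processing, so a step of 1 is a doubling, and a level of one gene cannot be set against that of another because probes differ in brightness. Differences are on the log2 scale, with standard errors from a limma fit to all 12 arrays. A gene is said to have risen or fallen, or to be called, where its adjusted p (Benjamini-Hochberg, over 22180 genes) was under 0.05. Intervals are 95% confidence intervals, and n = 3 arrays per group, except that a group has fewer in a fit that leaves out one of its arrays.

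Marker genes were set against the labels. The 5 measured T lineage markers (Cd3e, Cd3d, Cd3g, Cd2, Cd5) averaged 10.85 to 10.92 on the leukemia arrays, 5.73 to 6.89 on the GFP-positive arrays, 5.15 to 6.27 on the GFP-negative arrays and 5.32 to 5.75 on the iPS arrays. The 6 pluripotency markers (Nanog, Zfp42, Esrrb, Dppa5a, Tdgf1, Utf1) averaged 5.09 to 5.48, 7.0 to 9.46, 6.11 to 9.62 and 9.34 to 9.42 in the same order of groups, although Dppa5a lay between 5.46 and 6.42 on every array, iPS arrays included. The arrays of leukemia and of iPS cells were tight, with a median SD over genes of 0.105 and 0.0998, and the colonies were not, with 0.217 for GFP-positive and 0.245 for GFP-negative colonies. GFP-negative replicate 1 went against its label on the pluripotency markers, at 6.11 against 9.26 and 9.62 on replicates 2 and 3, and GFP-positive replicate 3 had the lowest value of its group, 7.0 against 8.0 and 9.46. Calls of the 10 members that changed without one of these arrays are given with and without it.

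The promoters of the 5 members that were called between iPS cells and leukemia are shown because RBPJ binds DNA through a short core sequence, TGGGAA, which can be looked for in them. Promoter windows from RefSeq (build GRCm38.p6), running from 250 bases before to 50 bases after a gene's start, were found for 8 of the 10 members, in 10 windows. Hes1 and Hey1 are named only. Each sequence is printed 5′ to 3′ on the gene's strand, with matches to the core in capitals (TGGGAA, or TTCCCA where the core lies on the opposite strand).
Notch1 (chr2:26503773-26504072, minus strand): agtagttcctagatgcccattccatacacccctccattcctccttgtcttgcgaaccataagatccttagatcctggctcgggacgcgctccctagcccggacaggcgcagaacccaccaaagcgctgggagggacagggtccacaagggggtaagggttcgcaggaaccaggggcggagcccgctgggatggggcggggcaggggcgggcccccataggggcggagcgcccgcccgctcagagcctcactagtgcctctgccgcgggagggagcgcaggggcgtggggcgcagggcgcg
Jag1 (chr2:137116471-137116770, minus strand): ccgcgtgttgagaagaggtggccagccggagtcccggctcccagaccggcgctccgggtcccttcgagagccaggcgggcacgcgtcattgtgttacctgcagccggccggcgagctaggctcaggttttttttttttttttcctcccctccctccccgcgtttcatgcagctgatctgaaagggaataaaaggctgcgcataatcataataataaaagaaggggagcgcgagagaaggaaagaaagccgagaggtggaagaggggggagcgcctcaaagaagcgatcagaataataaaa
Rbpj (chr5:53590096-53590395, plus strand): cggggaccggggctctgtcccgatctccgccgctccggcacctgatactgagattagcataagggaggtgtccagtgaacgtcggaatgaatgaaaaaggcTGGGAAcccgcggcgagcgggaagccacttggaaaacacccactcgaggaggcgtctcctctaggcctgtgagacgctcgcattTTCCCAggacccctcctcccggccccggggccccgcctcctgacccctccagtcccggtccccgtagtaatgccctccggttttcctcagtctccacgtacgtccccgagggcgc
Dtx1 (chr5:120711620-120711919, minus strand): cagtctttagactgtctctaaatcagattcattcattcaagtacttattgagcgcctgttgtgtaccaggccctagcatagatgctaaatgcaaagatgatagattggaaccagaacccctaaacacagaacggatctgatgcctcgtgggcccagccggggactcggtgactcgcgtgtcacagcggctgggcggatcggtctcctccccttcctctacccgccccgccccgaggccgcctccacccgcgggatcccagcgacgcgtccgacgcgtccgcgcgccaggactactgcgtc
Nrarp (chr2:25180508-25180807, plus strand): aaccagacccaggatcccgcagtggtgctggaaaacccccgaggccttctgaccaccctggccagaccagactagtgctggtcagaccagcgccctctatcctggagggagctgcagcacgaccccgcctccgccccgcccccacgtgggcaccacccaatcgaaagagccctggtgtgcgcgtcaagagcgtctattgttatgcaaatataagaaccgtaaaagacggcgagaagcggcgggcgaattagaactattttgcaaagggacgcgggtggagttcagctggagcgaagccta
Of these 5 windows only that of Rbpj held the core, at 149 bases before the start on the gene's strand and at 65 bases before it on the opposite strand. A further Rbpj window, which overlaps the printed one, held the second of these sites again, and the windows of Notch2, Notch3 and Dll1 held none. The longer form GTGGGAA, which contains the core, was in 0 of the 10 windows on either strand. Over all 32851 mouse promoter windows of this length, 25.6% held the core and 6.38% the longer form. The letters say nothing about whether RBPJ binds there.

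Among the receptors, Notch1 was highest in leukemia and far lower in every later stage. It measured 11.33, 11.31 and 11.33 on the leukemia arrays, 8.78, 8.98 and 9.07 on the GFP-positive arrays, 8.67, 8.64 and 8.68 on the GFP-negative arrays and 8.59, 8.66 and 8.60 on the iPS arrays. The leukemia arrays did not overlap with any other group. Against leukemia, Notch1 fell 5.19-fold in GFP-positive colonies (-2.38 ± 0.09, adjusted p = 6.7e-08, limma), 6.33-fold in GFP-negative colonies (-2.66 ± 0.09) and 6.53-fold in iPS cells (-2.71 ± 0.09, adjusted p = 2.34e-08, limma). These 3 comparisons share the leukemia arrays. In bulk RNA, fewer cells that express a gene and less of its RNA per cell cannot be told apart. Ordered from the largest fall, Notch1 was at rank 259 of 22180 genes between iPS cells and leukemia.

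Most of the difference of Notch1 between iPS cells and leukemia was also present in the GFP-positive colonies. With the leukemia mean at 0% and the iPS mean at 100% on the log2 scale, Notch1 lay at 93.8%, 86.4% and 83.0% on GFP-positive replicates 1, 2 and 3, and at 98.0%, 99.2% and 97.7% on the GFP-negative arrays. Over the 2756 genes called with at least a 2-fold difference between iPS cells and leukemia, the median position on the same arrays was 74.1%, 86.3% and 55.5% in GFP-positive and 67.7%, 86.9% and 91.7% in GFP-negative colonies. Notch1 thus stood nearer to the iPS mean on GFP-negative replicate 1 and GFP-positive replicate 3 than the median of these genes did. Its SD among the GFP-negative arrays was 0.0210, and 0.924% of genes had a lower SD there.

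Whether Notch1 differed further among the later stages was less clear. The iPS arrays all lay below the GFP-positive arrays, with 8.61 ± 0.04 in iPS cells and 8.95 ± 0.15 in GFP-positive colonies, a 1.26-fold fall (-0.33 ± 0.09, adjusted p = 0.0493, limma). This call was lost without GFP-positive replicate 2 or 3 and without any iPS array, with adjusted p up to 0.149 there (limma), and it held in 6 of 16 alternative fits. The GFP-negative arrays also lay below all GFP-positive arrays, at 8.66 ± 0.02, but the difference was not called (-0.29 ± 0.09, adjusted p = 0.731, interval -0.49 to -0.08). Between iPS cells and GFP-negative colonies it was -0.05 (interval -0.25 to 0.16). No check was made of whether this probe set also reads a NOTCH1 transgene.

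**Figure D1:**
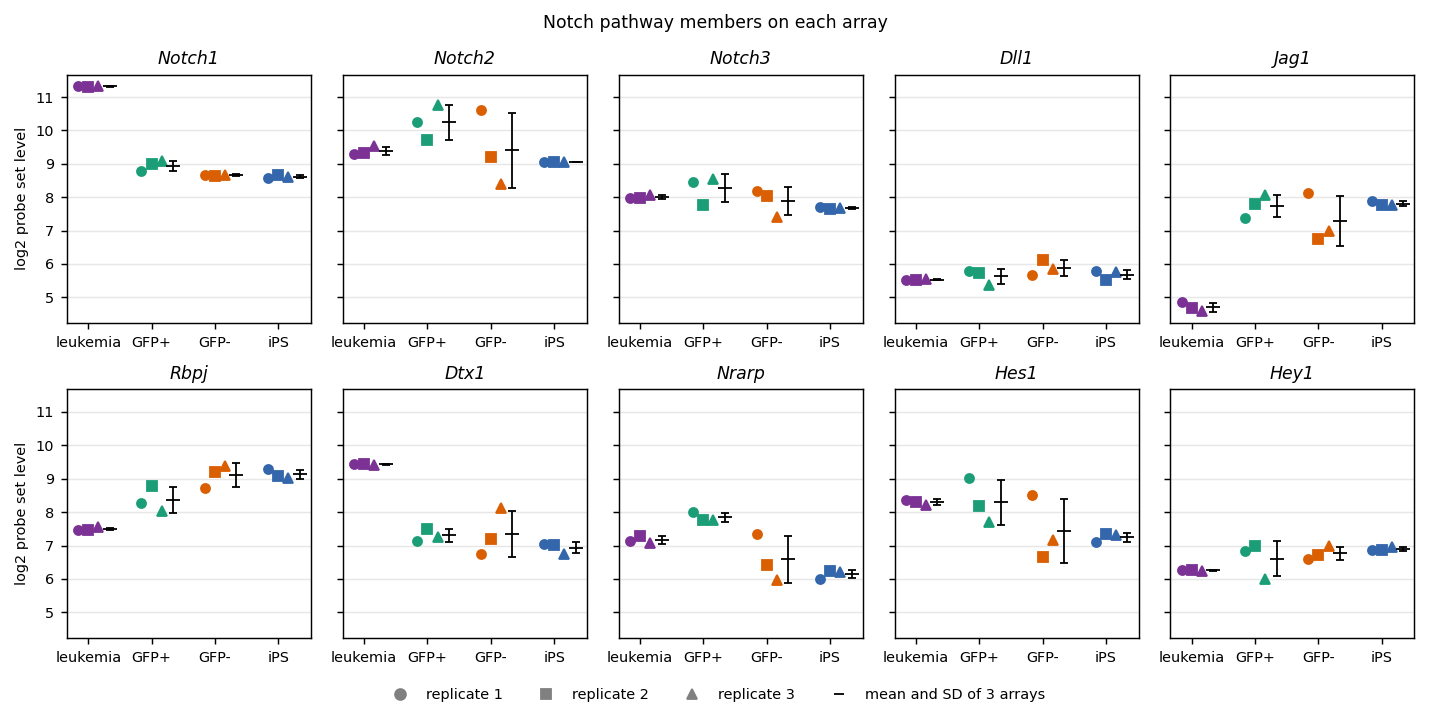
Log2 probe set level (vertical axis) of the 10 members on each array of the 4 groups (horizontal axis), with coloured points for arrays, shapes for replicate numbers, and black marks for the mean and SD of 3 arrays. Notch1 and Dtx1 are highest and Jag1 and Rbpj lowest in leukemia, and Notch2, Jag1, Dtx1, Nrarp and Hes1 spread widely among the GFP-negative arrays.

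Notch2 and Notch3, the other receptors in the set, were not called in any comparison in the fit of all 12 arrays. Notch2 measured 9.29, 9.34 and 9.53 on the leukemia arrays, 10.26, 9.72 and 10.75 on the GFP-positive arrays, 10.61, 9.21 and 8.40 on the GFP-negative arrays and 9.04 to 9.05 on the iPS arrays. All GFP-positive arrays lay above leukemia and all iPS arrays below it, whereas the GFP-negative arrays ran from below both to above both. The differences were 0.86 ± 0.45 between GFP-positive colonies and leukemia, -0.34 ± 0.45 between iPS cells and leukemia and -1.20 ± 0.45 between iPS cells and GFP-positive colonies, and limma called none of them (adjusted p = 0.217, 0.662 and 0.115).

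Notch3, a receptor known to be a target of Notch1 in T cells, measured 7.99, 7.96 and 8.07 on the leukemia arrays, 8.45, 7.78 and 8.55 on the GFP-positive arrays, 8.20, 8.04 and 7.41 on the GFP-negative arrays and 7.71, 7.63 and 7.68 on the iPS arrays. Its iPS arrays lay below all leukemia and all GFP-positive arrays, while both kinds of colony overlapped with leukemia. No comparison of Notch3 was called, the widest being that of iPS cells with GFP-positive colonies (-0.59 ± 0.23, interval -1.09 to -0.09, adjusted p = 0.122, limma).

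The ligand Jag1, which encodes Jagged1, rose more than any other member. It measured 4.86, 4.67 and 4.59 on the leukemia arrays, 7.38, 7.78 and 8.06 on the GFP-positive arrays, 8.13, 6.75 and 6.98 on the GFP-negative arrays and 7.90, 7.77 and 7.75 on the iPS arrays. No later array came near the leukemia arrays, which lay below the array medians of 5.76 to 5.82 on this gene. Background was not measured, so folds against such a low level may be lower bounds. Against leukemia it rose 8.19-fold in GFP-positive colonies (3.03 ± 0.31, adjusted p = 5.58e-05, limma), 5.98-fold in GFP-negative colonies (2.58 ± 0.31) and 8.59-fold in iPS cells (3.10 ± 0.31, adjusted p = 4.03e-05, limma). Among the 3 later stages Jag1 was not called in any comparison with all arrays, and without GFP-negative replicate 1 it was higher in iPS cells than in GFP-negative colonies (0.94 ± 0.18, adjusted p = 0.0196, limma). With all arrays the difference between iPS cells and GFP-positive colonies was 0.07 (interval -0.61 to 0.75).

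Epithelial markers were higher in the same groups as Jag1. The 5 measured epithelial markers (Epcam, Cdh1, Krt8, Krt18, Krt14) averaged 11.31 to 11.66 on the GFP-positive, 8.52 to 12.04 on the GFP-negative and 8.85 to 8.90 on the iPS arrays, against 5.53 to 5.72 in leukemia. The 6 fibroblast markers (Col1a1, Col1a2, Col3a1, Dcn, Lum, Pdgfrb) averaged 7.77 to 7.94 on the iPS, 5.60 to 6.74 on the GFP-positive and 5.59 to 6.09 on the GFP-negative arrays, against 5.67 to 5.81 in leukemia. Of these 6, 0 were called higher than leukemia in either kind of colony, where 9.60% and 9.02% of all genes were. In iPS cells 4 of the 6 were, where 12.4% of all genes were. The part of epithelial cells or fibroblasts in the level of Jag1 was not tested.

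Dll1, which encodes the ligand Delta-like 1, was not called in any comparison. It measured 5.52 to 5.55 on the leukemia arrays, 5.38 to 5.79 on the GFP-positive arrays, 5.66 to 6.13 on the GFP-negative arrays and 5.52 to 5.78 on the iPS arrays. Its largest difference was 0.35 ± 0.15 between GFP-negative colonies and leukemia (interval 0.02 to 0.68, adjusted p = 0.131, limma), and all GFP-negative arrays lay above leukemia. A second, dimmer Dll1 probe set gave -0.04 ± 0.09 there.

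Rbpj, the factor through which all Notch receptors act on DNA, was higher than in leukemia at every later stage. It measured 7.47, 7.47 and 7.54 on the leukemia arrays, 8.28, 8.78 and 8.04 on the GFP-positive arrays, 8.71, 9.21 and 9.39 on the GFP-negative arrays and 9.29, 9.09 and 9.02 on the iPS arrays. Every colony and iPS array lay above leukemia, and both kinds of colony overlapped. Against leukemia Rbpj rose 1.83-fold in GFP-positive colonies (0.87 ± 0.21, adjusted p = 0.0122, limma), 3.06-fold in GFP-negative colonies (1.61 ± 0.21) and 3.12-fold in iPS cells (1.64 ± 0.21, adjusted p = 2.29e-04, limma).

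Among the later stages, Rbpj was 1.70-fold higher in iPS cells than in GFP-positive colonies (0.77 ± 0.21, adjusted p = 0.0421, limma), a call lost without GFP-positive replicate 1 or 3 and without any iPS array (adjusted p up to 0.145 there) and kept in 7 of 16 alternative fits. The difference between iPS cells and GFP-negative colonies was 0.03 (interval -0.43 to 0.49). A second, dimmer Rbpj probe set rose as well, by 0.80 ± 0.21 in GFP-negative colonies (adjusted p = 0.0223, limma over all probe sets with 1 symbol) and by 1.17 ± 0.21 in iPS cells, and gave 0.65 ± 0.21 in GFP-positive colonies (adjusted p = 0.0544).

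The 4 target genes had differences of either sign between iPS cells and leukemia (Dtx1 -2.49, Nrarp -1.02, Hes1 -1.05 and Hey1 0.64), of which those of Dtx1 and Nrarp were called. Dtx1, like Notch1, was highest in leukemia, with 9.44, 9.43 and 9.42 on the leukemia arrays, 7.14, 7.51 and 7.26 on the GFP-positive arrays, 6.74, 7.18 and 8.11 on the GFP-negative arrays and 7.04, 7.02 and 6.75 on the iPS arrays. No later array reached the leukemia level, and GFP-negative replicate 3 was the highest of the later arrays. Against leukemia Dtx1 fell 4.36-fold in GFP-positive colonies (-2.12 ± 0.28, adjusted p = 3.39e-04, limma), 4.25-fold in GFP-negative colonies (-2.09 ± 0.28) and 5.63-fold in iPS cells (-2.49 ± 0.28, adjusted p = 9.27e-05, limma). With the mean of both Dtx1 probe sets the falls were 2.52-fold (GFP-positive), 2.41-fold (GFP-negative) and 3.25-fold (iPS), all still called. A second, dimmer Dtx1 probe set fell in iPS cells by 0.90 on the log2 scale (adjusted p = 0.0415, limma over all probe sets with 1 symbol) and was not called in the colonies.

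Nrarp was highest in the GFP-positive colonies. It measured 7.13, 7.29 and 7.07 on the leukemia arrays, 8.01, 7.76 and 7.77 on the GFP-positive arrays, 7.35, 6.42 and 5.98 on the GFP-negative arrays and 6.01, 6.23 and 6.20 on the iPS arrays. All GFP-positive arrays lay above leukemia, all iPS arrays below it, and GFP-negative replicate 1 above it while replicates 2 and 3 lay below. Nrarp fell 3.24-fold in iPS cells against GFP-positive colonies (-1.70 ± 0.27, adjusted p = 0.00647, limma) and 2.02-fold in iPS cells against leukemia (-1.02 ± 0.27, adjusted p = 0.0199, limma). The first of these calls was kept in all 16 alternative fits, with adjusted p up to 0.0351. The second was lost without iPS replicate 1 or 3 or leukemia replicate 1 or 2, with adjusted p values up to 0.0730. GFP-positive colonies against leukemia gave 0.68 ± 0.27 (adjusted p = 0.107, limma), which was not called.

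Hes1 measured 8.38, 8.31 and 8.22 on the leukemia arrays, 9.02, 8.17 and 7.70 on the GFP-positive arrays, 8.52, 6.66 and 7.17 on the GFP-negative arrays and 7.10, 7.33 and 7.31 on the iPS arrays. Its iPS arrays lay below every leukemia and GFP-positive array, and the colonies spanned both sides of leukemia. No comparison of Hes1 was called, with -1.05 ± 0.43 between iPS cells and leukemia (interval -2.0 to -0.10, adjusted p = 0.106, limma). A fit of the 6 arrays of iPS cells and leukemia alone, without the spread of the colonies, gave the same difference with a standard error of 0.09 and called it (adjusted p = 1.68e-05, limma).

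Hey1 measured 6.25 to 6.27 on the leukemia arrays, 6.00 to 6.98 on the GFP-positive arrays, 6.59 to 6.97 on the GFP-negative arrays and 6.86 to 6.97 on the iPS arrays. It lay above leukemia on every GFP-negative and iPS array, and below it on GFP-positive replicate 3 alone. Between GFP-positive colonies and leukemia the difference was 0.35 ± 0.22 with all arrays (adjusted p = 0.303, limma), and 0.65 ± 0.12 and called without GFP-positive replicate 3 (adjusted p = 0.00506, limma). The difference between iPS cells and leukemia was 0.64 ± 0.22 (interval 0.16 to 1.12, adjusted p = 0.0533, limma), just outside the threshold, and 0.64 ± 0.07 in the fit of the 6 arrays (adjusted p = 8.62e-05, limma). Hes1 and Hey1, both basic helix-loop-helix repressors, had differences of opposite sign between these groups.

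**Figure D2:**
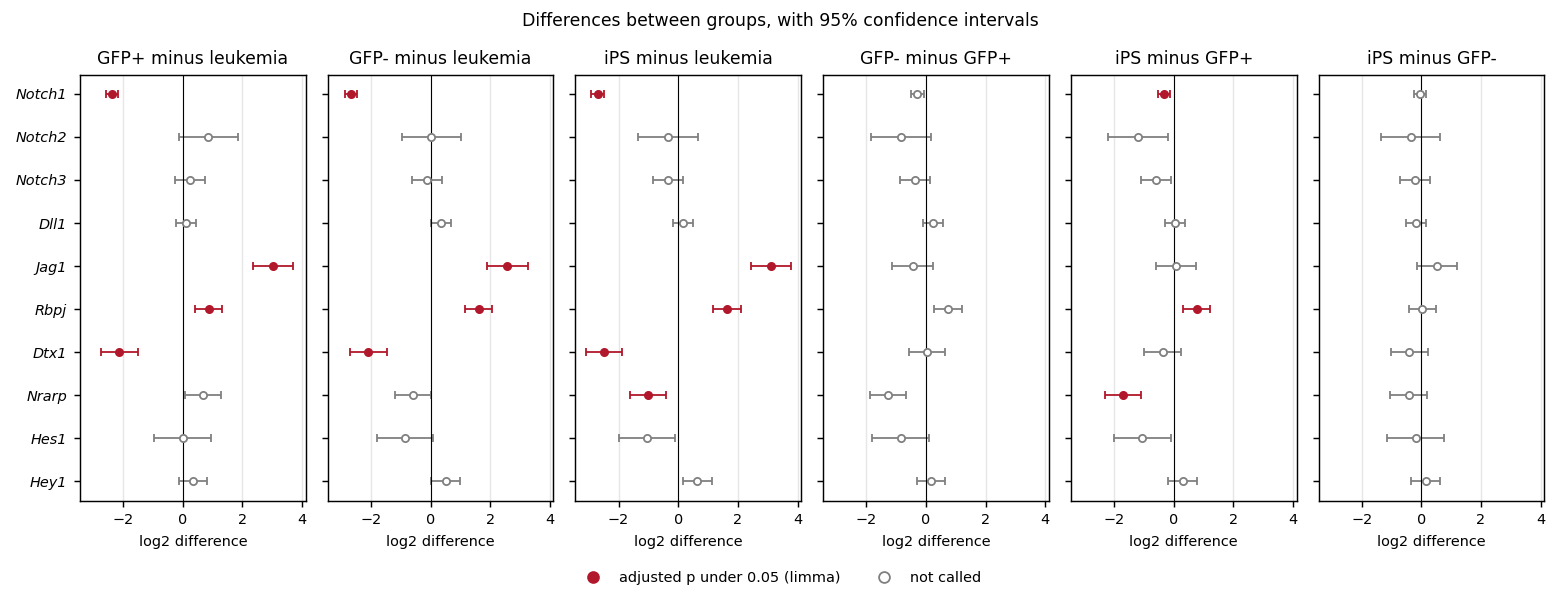
Log2 difference (horizontal axis) of each member (vertical axis) in the 6 comparisons, with 95% confidence intervals from limma, filled red where the adjusted p was under 0.05. Notch1 and Dtx1 lie to the left and Jag1 and Rbpj to the right of 0 in all 3 comparisons with leukemia, and 0 members are filled between GFP-negative and GFP-positive colonies.

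Counted together, 4 of the 10 members were called between GFP-positive colonies and leukemia (2 higher, 2 lower), where 21.9% of all genes were called. Between GFP-negative colonies and leukemia 4 were called (2 higher, 2 lower), where 21.0% of all genes were, and between iPS cells and leukemia 5 (2 higher, 3 lower), where 24.3% were. Notch1, Dtx1, Jag1 and Rbpj made up the 4 in both colony comparisons, and Nrarp was the fifth in iPS cells. By direction, the 2 rises stood beside 9.60%, 9.02% and 12.4% of all genes rising, and the falls beside 11.9% to 12.3% of all genes falling. The arrays of both groups did not overlap for 6, 6 and 9 of the 10 members, against 41.9%, 37.2% and 56.5% of all genes. The median difference of the members was 0.30, -0.05 and -0.34 in these 3 comparisons, against -0.04, -0.01 and -0.03 over all genes. Between iPS cells and GFP-positive colonies 3 members were called (Notch1 and Nrarp lower, Rbpj higher), against 10.4% of all genes (6.15% higher, 4.23% lower), and 7 did not overlap, against 38.1%. With a spread per group 6 members and 19.4% of all genes were called there. Between iPS cells and GFP-negative colonies 0 members were called and 0 had an unadjusted p under 0.05, against 4.25% of all genes called (2.94% higher, 1.32% lower), and 0 were without overlap, against 27.1%. In the fit of the 6 arrays of iPS cells and leukemia, 9 of the 10 members were called, all but Dll1, and 47.5% of all genes.

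Between GFP-negative and GFP-positive colonies limma called 0 of the 10 members and 0% of all genes, at a smallest adjusted p of 0.141 over all genes. Of the members 3 had an unadjusted p under 0.05, as had 1413 of 22180 genes where chance gives 1109. Notch1 and Nrarp were the members whose arrays did not overlap between both kinds of colony, 2 of 10 against 6.53% of all genes. The mean level of Nrarp was 6.58 ± 0.70 on the GFP-negative and 7.84 ± 0.14 on the GFP-positive arrays (-1.26 ± 0.27, interval -1.87 to -0.66, adjusted p = 0.416, limma).

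Leaving out GFP-negative replicate 1 changed this comparison. On Notch2 it measured 10.61, against 9.21 and 8.40 on GFP-negative replicates 2 and 3, and on Jag1 8.13, against 6.75 and 6.98. On Hes1 it measured 8.52, against 6.66 and 7.17. In these 3 genes, and in Nrarp, the array had the highest value of its group, and it had the lowest on Rbpj. Without it, limma called 5 members between GFP-negative and GFP-positive colonies, and 4.59% of all genes. Nrarp (-1.65 ± 0.15, adjusted p = 9.6e-04), Notch2 (-1.44 ± 0.29, adjusted p = 0.0258), Hes1 (-1.38 ± 0.31, adjusted p = 0.0376) and Jag1 (-0.87 ± 0.18, adjusted p = 0.0300) were then lower in GFP-negative colonies, and Rbpj (0.94 ± 0.19, adjusted p = 0.0276) higher. With array weights, which gave this array the lowest weight, 4 members and 5.93% of all genes were called. The weights were 0.148, 2.18 and 0.303 on GFP-negative replicates 1, 2 and 3. They were 1.48, 0.377 and 0.267 on GFP-positive replicates 1, 2 and 3. That fit thus rested mostly on GFP-negative replicate 2 and GFP-positive replicate 1. Against leukemia the same omission raised the members called in GFP-negative colonies to 7, with Nrarp, Hes1 and Dll1 added, where 27.2% of all genes were called.

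Marker levels were set beside these values. GFP-negative replicate 1 had the highest epithelial average of all arrays, 12.04, against 10.83 and 8.52 on GFP-negative replicates 2 and 3, and its pluripotency average was the lowest of the colonies. Its macrophage markers (Csf1r, Adgre1, Lyz2, C1qa, C1qb, Cd68) averaged 7.40, against 8.50 and 6.43 on the same replicates, and the highest macrophage average, 9.59, was that of GFP-positive replicate 3. From GFP-negative replicate 2 to replicate 3 the epithelial average was lower, as were Notch2 and Nrarp, whereas Jag1, Hes1 and Rbpj were higher. The part of cell composition in the values of Notch2, Jag1, Nrarp, Hes1 and Rbpj was not tested.

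**Figure D3:**
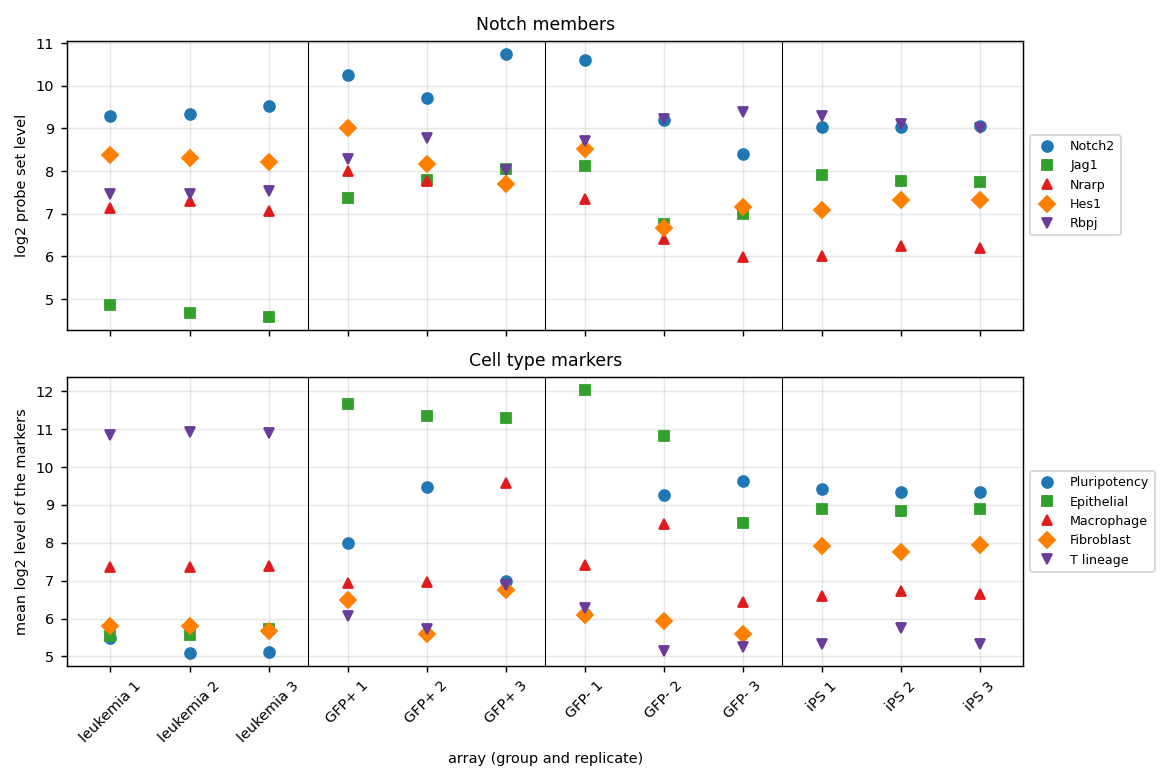
Log2 levels of 5 members (upper panel) and mean log2 levels of cell type markers (lower panel) on each of the 12 arrays (horizontal axis), in the order of the stages. On GFP-negative replicate 1, Notch2 (10.61) and Hes1 (8.52) are high together with the epithelial markers (12.04), and the pluripotency markers (6.11) are low.

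The colony arrays took different positions between leukemia and iPS cells from member to member. Jag1 lay at 86.2%, 99.2% and 108% of the distance on the GFP-positive arrays, and at 110%, 65.8% and 73.5% on the GFP-negative arrays. Rbpj lay at 47.6%, 78.6% and 33% on the GFP-positive arrays, and at 74.2%, 105% and 116% on the GFP-negative arrays. On GFP-negative replicates 2 and 3, then, Rbpj lay above the iPS mean and Jag1 between the 2 means. Rbpj on replicate 2 (9.21) was within the iPS arrays (9.02 to 9.29), and on replicate 3 (9.39) above them. Dtx1 lay between 77.0% and 91.6% on the GFP-positive arrays, and at 108%, 90.2% and 52.9% on the GFP-negative arrays. Nrarp lay on the far side of leukemia, at -82.7%, -58.3% and -59.4%, on the GFP-positive arrays, and at -18.2%, 73.6% and 117% on the GFP-negative arrays.

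**Figure D4:**
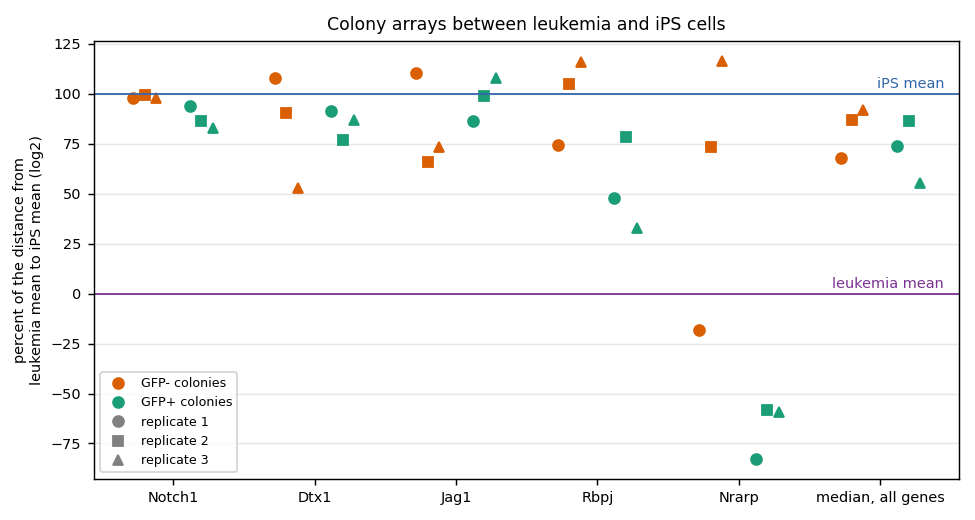
Position of each colony array (percent of the log2 distance between the means of leukemia, at 0, and of iPS cells, at 100) for the 5 members called between iPS cells and leukemia and for the median of 2756 genes called at 2-fold or more. All 6 arrays lie above 83% on Notch1, whereas the 3 GFP-positive arrays lie below 0 on Nrarp.

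The rest of the pathway was read from a list of 70 further genes in 7 roles, of which 65 were measured as genes with 1 symbol. In GFP-positive colonies 7 of the 65 were higher than in leukemia and 15 lower, in GFP-negative colonies 6 and 17, and in iPS cells 8 and 19. This made 33.8%, 35.4% and 41.5% of the list, against 21.9%, 21.0% and 24.3% of all genes. The median differences were -0.06, -0.09 and -0.17. No gene of the list was called between GFP-negative and GFP-positive colonies in the fit of all arrays. Without GFP-negative replicate 1, 8 were called, where 4.59% of all genes were. How single calls of this list change without a colony array is not given here.

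Known Notch1 targets in T cells made up 7 of the 15 falls in GFP-positive colonies against leukemia. Of the 11 such targets measured, 8 were lower in GFP-negative colonies, 8 were lower in iPS cells, and 0 rose in any of these comparisons. The median differences of the 11 targets were -1.39, -1.65 and -1.80. Lef1, a transcription factor of early T cells, fell the furthest, with differences of -5.71 ± 0.58, -5.17 ± 0.58 and -5.97 ± 0.58 (adjusted p = 6.17e-05, 1.26e-04 and 3.78e-05, limma), and Cd3e, a CD3 chain that is also one of the T lineage markers above, gave -3.09, -4.53 and -5.23. Il7r, the interleukin-7 receptor, was not called and measured 3.86, 3.68 and 7.41 on the 3 GFP-positive arrays, replicate 3 being the high one. The cyclin gene Ccnd3 and the growth factor receptor gene Igf1r were not called either. T cells express these targets, and the T lineage markers moved with them (10.85 to 10.92 in leukemia, at most 6.89 later); the part of T cell number in these falls was not tested.

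Of 7 other Hes and Hey factors, Heyl and Hes5 were lower than in leukemia in all 3 later stages. Heyl measured 9.0, 9.01 and 9.09 in leukemia and at most 7.76 on any later array, with differences from leukemia of -2.04 ± 0.32 (GFP-positive), -2.40 ± 0.32 (GFP-negative) and -2.64 ± 0.32 (iPS) (adjusted p = 0.00104, 3.57e-04 and 1.56e-04, limma). Hes5 gave -0.74, -0.89 and -0.91. Hey2 rose in GFP-positive colonies (0.90 ± 0.20, adjusted p = 0.00758, limma) and was not called in the other comparisons. In all, 4 of the 7 fell and 1 rose in GFP-positive colonies, and 2 and 3 fell in the GFP-negative and iPS arrays. These were 71.4%, 28.6% and 42.9% of the 7, against 21.9%, 21.0% and 24.3% of all genes called.

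Of the 3 fringe enzymes, which add sugars to Notch receptors and so alter their response to ligands, Mfng fell in all 3 later stages against leukemia. Mfng (Manic fringe) measured 9.34, 9.36 and 9.50 in leukemia, and at most 7.75 on any later array, with differences from leukemia of -2.55 ± 0.31 (GFP-positive), -2.74 ± 0.31 (GFP-negative) and -2.55 ± 0.31 (iPS) (adjusted p = 2.19e-04, 1.31e-04 and 1.79e-04, limma). Lfng (Lunatic fringe) fell in GFP-positive colonies (-0.44) and iPS cells (-0.63) and was not called in GFP-negative colonies (-0.41). Rfng (Radical fringe) was not called, with 0.33, 0.12 and 0.28 in the order of the stages. The calls were 66.7%, 33.3% and 66.7% of the 3 enzymes, against 21.9%, 21.0% and 24.3% of all genes.

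Among ligands and receptors outside the set, 14.3% were called in each kind of colony and 42.9% in iPS cells, against 21.9%, 21.0% and 24.3% of all genes. Of the 7 such genes, 1 rose in each kind of colony against leukemia, Notch4 (0.78 ± 0.19 in GFP-positive and 0.94 ± 0.19 in GFP-negative colonies), and 3 rose in iPS cells, led by the ligand Jag2 (1.09 ± 0.14, adjusted p = 2.32e-04, limma) and Notch4 (0.87). Jag2 was also higher in iPS cells than in GFP-positive colonies (0.73 ± 0.14, adjusted p = 0.0116, limma) and than in GFP-negative colonies (0.70 ± 0.14, adjusted p = 0.0204). 

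Among 11 measured receptor-processing genes, the calls against leukemia numbered 1 for GFP-positive colonies, 2 for GFP-negative colonies and 3 for iPS cells. These were 9.09%, 18.2% and 27.3%, against 21.9%, 21.0% and 24.3% of all genes. Poglut1, which puts O-linked glucose on Notch, rose against leukemia in iPS cells (2.04 ± 0.24, adjusted p = 1.46e-04, limma) and GFP-negative colonies (0.99 ± 0.24). The proprotein convertase gene Furin rose in GFP-positive colonies against leukemia (2.34 ± 0.61, adjusted p = 0.0188, limma), and Furin measured 11.26, 9.02 and 8.16 on the GFP-negative arrays. Adam10, the protease that makes the ligand-induced cut, was lower in iPS cells than in GFP-positive colonies (-1.42 ± 0.40, adjusted p = 0.0468, limma), and stood at 10.52, 8.74 and 8.68 on the GFP-negative arrays. On both genes GFP-negative replicate 1 was again the high array of its group. The gamma-secretase subunit genes Aph1b (-0.32) and Aph1c (-0.49) were lower in iPS cells than in leukemia.

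Against leukemia, 1 of 15 cofactor genes rose and 2 fell in GFP-positive colonies. In each of GFP-negative colonies and iPS cells, 2 rose and 4 fell against leukemia. These were 20%, 40% and 40% of the cofactor genes, against 21.9%, 21.0% and 24.3% of all genes. The Groucho family corepressor gene Tle4 rose in all 3, by 3.21 ± 0.19, 3.13 ± 0.19 and 2.82 ± 0.19. The corepressor gene Ctbp1 fell in all 3, with -0.75, -1.05 and -1.22. The Mastermind-like coactivator gene Maml3 fell in GFP-negative colonies (-1.28 ± 0.36) and iPS cells (-1.76 ± 0.36, adjusted p = 0.00496, limma). Among 11 ubiquitin ligases and endocytic regulators, 3 rose and 0 fell in GFP-positive colonies against leukemia. In GFP-negative colonies 2 rose and 1 fell, and in iPS cells 2 rose and 0 fell. These were 27.3%, 27.3% and 18.2% of the 11, against 21.9%, 21.0% and 24.3% of all genes. Numbl, a relative of the Notch antagonist Numb, rose by 1.58 ± 0.21, 1.81 ± 0.21 and 2.27 ± 0.21. Numb itself rose in GFP-positive colonies (1.08 ± 0.28, adjusted p = 0.0192, limma) and was lower in iPS cells than there (-1.04 ± 0.28). Neurl1b fell in GFP-negative colonies against leukemia (-1.09 ± 0.30, adjusted p = 0.0275, limma).

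**Figure D5:**
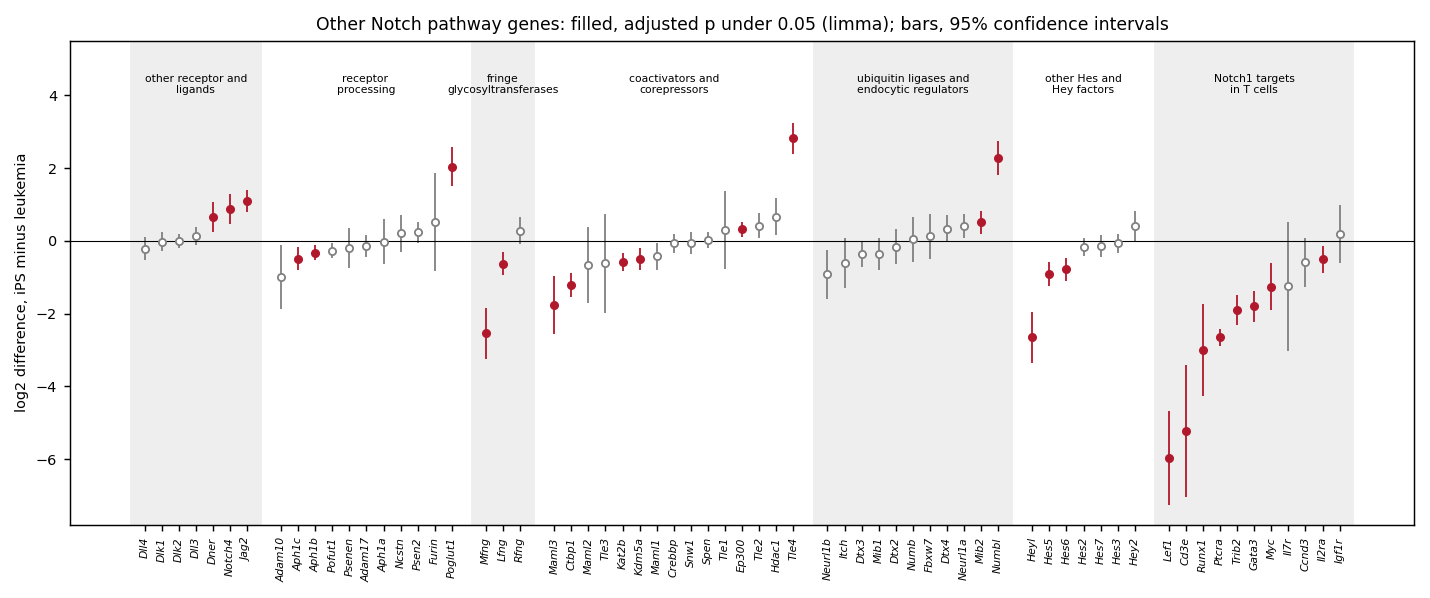
Log2 difference between iPS cells and leukemia (vertical axis) for the 65 further pathway genes (horizontal axis), grouped by role, with 95% confidence intervals from limma and filled red points where the adjusted p was under 0.05. The Notch1 targets in T cells lie mostly below 0, down to Lef1 at -5.97, and Tle4 (2.82), Numbl (2.27) and Poglut1 (2.04) lie highest.

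The genes whose levels over the 12 arrays were most like those of 3 of the members were read off by Pearson correlation, as a description. The arrays share 4 groups, so a gene that separates leukemia from the rest correlates highly for that reason. For Notch1 the 5 closest genes were Slamf6, Akna, Gimap5, Ptprcap and Cytip, with r between 0.994 and 0.996, all of them higher in leukemia than on any later array. Slamf6, a lymphocyte surface receptor, had mean levels of 11.51 on the leukemia, 5.23 on the GFP-positive, 4.97 on the GFP-negative and 4.74 on the iPS arrays. For Jag1 they were Slc6a6, Ddah2, Irf2bpl, Timp1 and Slc44a1, with r between 0.981 and 0.985. Timp1, an inhibitor of matrix proteases, had mean levels of 4.69, 8.66, 8.54 and 9.16 in the same order. For Hes1 the likeness was lower, r between 0.915 and 0.938, with the cell polarity gene Pard6g first and Map3k2, Ap4b1, Tcp11l2 and Dera after it.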

How the data were processed

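The authors deposited log2 probe set levels per probe set and array, computed with RMA per the submitters' processing notes; its software is not given in the sources used here. Biotinylated cRNA was made from Trizol-extracted RNA, per the labels' protocols. RMA's quantile normalization removes a shift of most genes in 1 direction. No background values were used here, and precision is limited by there being 12 arrays.

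Of 41345 probe sets, 23521 had 1 gene symbol in the platform annotation, 1814 had several and 16010 had none here. The brightest probe set of a gene was used, which gave 22180 genes. Dll1, Rbpj and Dtx1 have 2 probe sets each. The array medians lay between 5.76 and 5.82, with 0 identical pairs. All 10 members matched RefSeq by Entrez identifier.

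Group means were fitted to the 12 arrays with limma 3.58.1 in R 4.3.3. A check on simulated data of 22180 genes covered only iPS cells against leukemia, not the comparisons with the colonies. The alternatives covered array weights, a spread per group, the 6 compared arrays alone, cyclic loess, median centring, the mean of probe sets, a filter on low levels, a trended robust prior, a replicate block and each array left out. The members, lists and tests were chosen with earlier results of these data known, and the omission of both divergent colony arrays was chosen after seeing the data. Named were the 10 members, up to 2 called rises and 2 called falls per role and comparison of the wider list, and the 5 genes most correlated with each of Notch1, Hes1 and Jag1, without predicted gene names. Il7r, Ccnd3, Igf1r, Rfng and the values of Furin and Adam10 by array were added after their values were seen. Some genes of the wider list and of the marker lists were not analysed here.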

Additional observations from a re-analysis of the deposited data

Results flagged for a closer look

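Groups of 3 arrays are too small for an outlier test, so none was run. For 3 members the difference from leukemia differed between iPS cells and GFP-positive colonies by a direct test of these groups (limma): Nrarp (-1.70, adjusted p = 0.00647), Rbpj (0.77, adjusted p = 0.0421) and Notch1 (-0.33, adjusted p = 0.0493). For Notch2 every iPS array lay below the leukemia arrays and every GFP-positive array above them, and the difference between these groups, -1.20, was not called (adjusted p = 0.115, limma).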

How the results depend on the processing

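Of 954 recomputed differences of the members, 869 kept their side of the threshold, 62 were newly called, 23 were no longer called and 0 called ones changed direction. The calls of Notch1, Dtx1, Jag1 and Rbpj against leukemia were kept in all 16 alternatives of each comparison. With array weights 7 members were called between GFP-positive colonies and leukemia, 8 between GFP-negative colonies and leukemia, 8 between iPS cells and leukemia, 4 between GFP-negative and GFP-positive colonies, 5 between iPS cells and GFP-positive colonies and 2 between iPS cells and GFP-negative colonies, where the shares of all genes called were 36.9%, 39.1%, 47.5%, 5.93%, 31.5% and 19.8%. With a spread per group it was 8 between iPS cells and leukemia (47.0% of all genes) and 6 between iPS cells and GFP-positive colonies (19.4%), and with the 6 compared arrays alone 9 between iPS cells and leukemia (47.5%). Without both GFP-negative replicate 1 and GFP-positive replicate 3 it was 8 between GFP-negative colonies and leukemia (32.9% of all genes), 5 between GFP-negative and GFP-positive colonies (4.73%) and 1 between iPS cells and GFP-negative colonies (10.02%). Leaving out 1 array at a time gave 4 to 5 called members in GFP-positive colonies, 4 to 7 in GFP-negative colonies and 4 to 5 in iPS cells against leukemia, 0 to 5 between GFP-negative and GFP-positive colonies, 1 to 3 between iPS cells and GFP-positive colonies and 0 to 1 between iPS cells and GFP-negative colonies. The lowest value for iPS cells and GFP-positive colonies came without GFP-positive replicate 3 or any iPS array. With the 6 compared arrays alone, the share of all genes called between GFP-negative colonies and leukemia went from 21.0% to 14.9%. Between iPS cells and GFP-negative colonies it went from 4.25% to 0.857%. It rose from 21.9% to 22.7% between GFP-positive colonies and leukemia, and from 10.4% to 12.7% between iPS cells and GFP-positive colonies. The fits without the colonies' spread test more precisely by construction, and otherwise the cause was not tested.

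The replicate numbers share only a number: correlations of deviations between same-numbered arrays ran from -0.38 to 0.32, and 2 of 18 were over 0.1. With the number as a replicate block, 1 member (Nrarp) stayed called between iPS cells and GFP-positive colonies, the calls of Notch1 and Rbpj being lost (8.63% of all genes called), and the counts of the other comparisons did not change. Cyclic loess moved the share of higher genes among all calls from 43.9% to 57.1% in GFP-positive colonies against leukemia, from 43.0% to 53.4% in GFP-negative colonies, and from 59.2% to 48.3% between iPS cells and GFP-positive colonies.

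Of the wider list, 14 genes were called without leukemia replicate 3 between GFP-positive colonies and leukemia (15.4% of all genes), and 2 without iPS replicate 1 between iPS cells and GFP-positive colonies (2.70%). Without GFP-positive replicate 3, 25 were called between GFP-positive colonies and leukemia (21.4% of all genes), against 22 with all arrays.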
